A study of Canis lupus familiaris with 6 samples.

Results

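Heme is the iron-containing ring that hemoglobin uses to carry oxygen, and its synthesis starts and ends in the mitochondrion, with the middle steps in the cytosol. ALAS1 and ALAS2 are alternative enzymes of the entry step, in which glycine and succinyl-CoA form 5-aminolevulinate. ALAS1 serves most cells, whereas ALAS2, encoded on the X chromosome, serves developing red cells. ALAD and UROS act on the way to uroporphyrinogen III, UROD and CPOX shorten its side chains, PPOX oxidizes the ring, and FECH inserts the iron. BLVRB reduces biliverdin and flavins with NADPH and is abundant in red cells. It is therefore a heme-related enzyme of red cells and not an enzyme of the synthesis itself. Young red cells (reticulocytes) still hold RNA, so whole blood RNA carries the transcripts of this pathway.

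The genes described here were chosen by symbol: ALAS1, ALAS2, ALAD, UROS, UROD, CPOX, PPOX, FECH and BLVRB. All 9 were found among the 31512 genes of the deposited table, and all are annotated as protein-coding. The libraries came from whole blood of healthy adult Beagle dogs on day 30, with 3 dogs in the control group and 3 in the CPP-Se group. Both groups ate the same maintenance food and the same amount of a snack, which for the CPP-Se group contained CPP-Se, a chelate of selenium and casein phosphopeptides. The comparison addressed whether the supplement was accompanied by a change of gene expression in blood. Values are FPKM (fragments scaled by gene length and library size), which allows levels to be compared between genes.

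Depth and the summed levels of cell type markers differed between the dogs. Between 6598173 and 8067034 reads per library lay on genes, as recovered from the FPKM and the gene lengths, and 8 hemoglobin genes held 36.6% to 55.9% of them. The lowest share was that of CPP-Se replicate 2, and the library size that its FPKM imply was 1.65 times its reads on genes, against 0.882 to 1.05 times in the other libraries. The summed FPKM of 21 red cell markers was 1135, 2073 and 784 in control replicates 1, 2 and 3, against 1348, 1803 and 2397 in the CPP-Se dogs. One of these markers, AHSP, gave 571, 1104 and 194 FPKM of the control sums and 608, 1329 and 1022 FPKM of the CPP-Se sums. The order of the libraries in this sum, and any scaling to it, thus rest in large part on AHSP. The summed FPKM of 8 monocyte markers was 844 to 994 in the control group and 404 to 470 in the CPP-Se group. In bulk blood, fewer cells of a type and less RNA per cell cannot be told apart.

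No difference between the groups was detected for any of the 9 genes. The test was limma on log2(FPKM + 1), two-sided, over the 9847 genes whose mean reached 1 FPKM, and a DEG needed an adjusted p (Benjamini-Hochberg) under 0.05 together with a change of 1.5-fold or more. In this test 0 of the 9 were DEGs, against 0.0305% of all genes tested (3 of 9847), and the adjusted p of the 9 lay between 0.519 and 0.957. The paper, with DESeq2 at the same adjusted p and fold thresholds, reported far more DEGs over all genes. limma-voom on the recovered reads called 0 of the 9 without sample quality weights, against 0.0102% of all genes tested (1 of 9847). With these weights it also called 0 of the 9, against 1.58% of all genes tested (156 of 9847). Before adjustment, p was under 0.05 for 0 of the 9 and for 16.0% of all genes tested. The groups overlapped in each of the 9, while they did not overlap in 23.0% of all genes tested. A fold change of at least 1.5, whatever its p, was found for 1 of the 9 and for 18.6% of all genes tested. The log2 fold change was above 0 in 6 of the 9 and below 0 in 3, with a median of 0.30, beside a median of -0.0043 over all genes tested. The median of the 9 rested on single dogs, being -0.0080 without control replicate 3, 0.013 without CPP-Se replicate 1 and 0.035 without CPP-Se replicate 3, whereas it was 0.59 without CPP-Se replicate 2. With all libraries scaled to the same summed red cell markers, 1 of the 9 was above 0 and 8 were below, with a median of -0.23 beside one of -0.46 over all genes tested, and 6 of the 9 were above the latter.

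**Figure D1:**
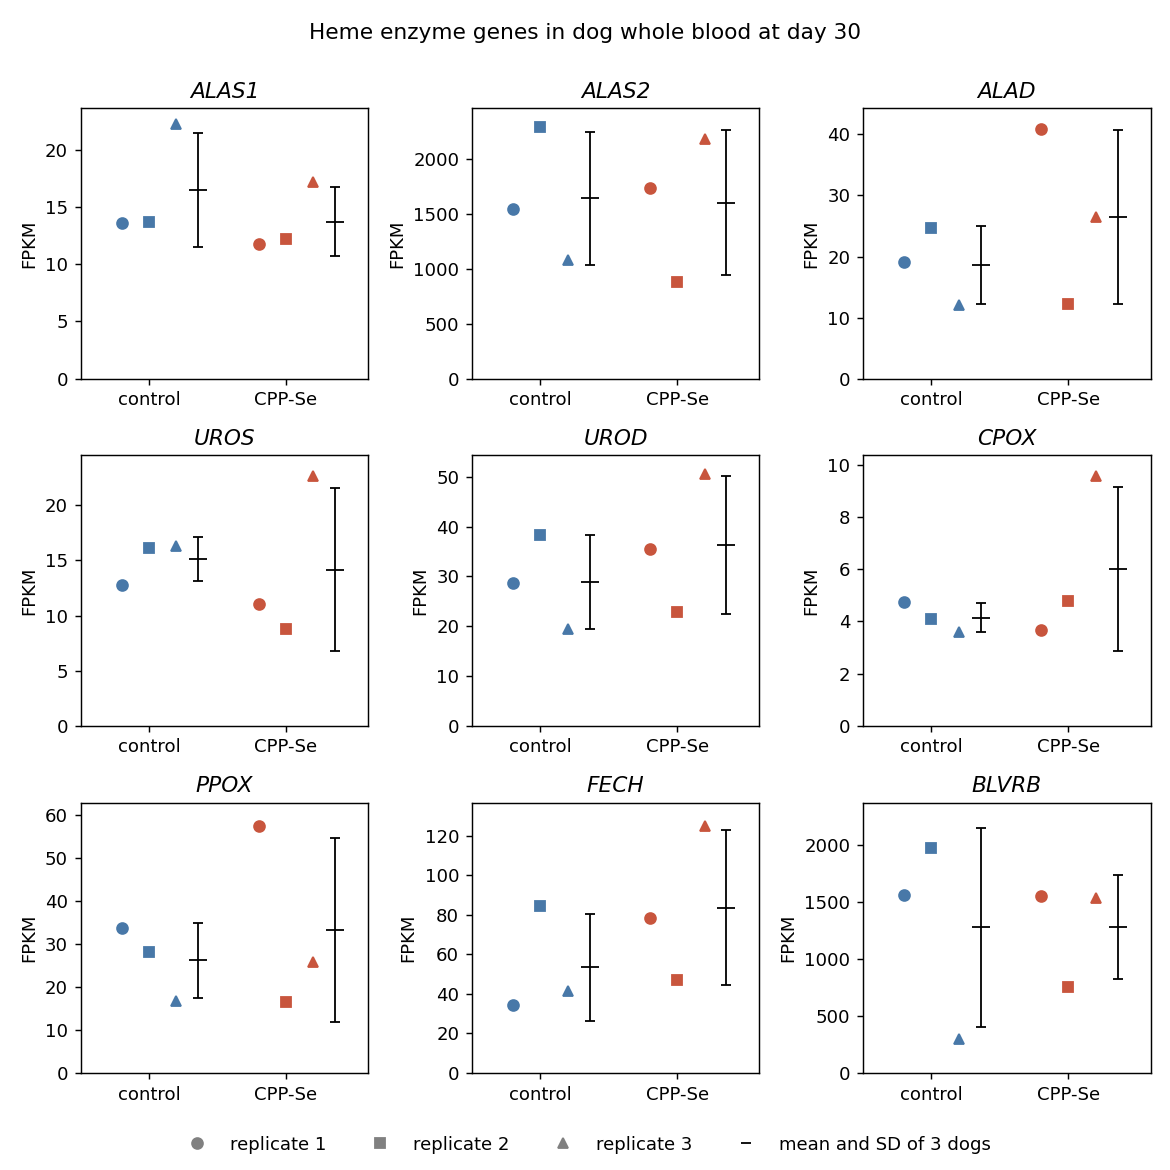
FPKM (y axis, linear from 0) of the 9 heme enzyme genes in each control and CPP-Se dog. Symbols give the replicate number, and the black bars give the mean and SD of 3 dogs. The groups overlap in every panel, and ALAS2 and BLVRB lie far above the other genes.

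ALAS2 (ENSCAFG00000014308, chromosome X, 46703477 to 46723529, minus strand) had the highest level of the pathway. Its FPKM were 1545, 2292 and 1085 in the control dogs (replicates 1, 2 and 3, in this order throughout), against 1737, 883 and 2183 in the CPP-Se dogs. The lowest and the highest dog were thus in different groups, and each group held both high and low dogs. The mean was 1640 ± 609 FPKM in the control group, against 1601 ± 661 FPKM in the supplemented group (means ± SD of n = 3 dogs here and below). The log2 fold change was -0.07 with a standard error of 0.43 (adjusted p = 0.957 from limma). Its sign rested on single dogs, with 0.21 without control replicate 2 and 0.31 without CPP-Se replicate 2. With a common sum of FPKM it was 0.090, a scaling that moved the median of all genes tested to 0.13. Relative to the median of all genes tested, ALAS2 was at -0.037 on that scale, against -0.062 in the test reported. The 95% interval in the test reported ran from -1.05 to 0.92, so a change of up to 1.89-fold upward or to 0.482 of the control level was within the error. ALAS2 stood at rank 21 of the 31512 genes by mean FPKM. Between 15188 and 25473 reads per library lay on ALAS2, so counting error was small. Its highest FPKM was 2.60 times its lowest, a spread that includes the scaling of each library.

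ALAS1 (ENSCAFG00000009881, chromosome 20, 37552814 to 37566638, minus strand), the enzyme of the same step in other cells, was much lower. It had 13.6, 13.7 and 22.2 FPKM in the control dogs, against 11.8, 12.2 and 17.2 FPKM in the CPP-Se dogs. The third replicate was the highest in both groups, and 2 of the 3 CPP-Se dogs were below all control dogs. The log2 fold change was -0.23 with a standard error of 0.25, the smallest error of the 9 genes (adjusted p = 0.695 from limma). It was -0.0080 without control replicate 3 and -0.39 without CPP-Se replicate 3. ALAS1 lies within the interval of POC1A on the other strand, and POC1A held reads equal to 41.7% of those on ALAS1. The use of strand in the counting is not given in the sources used here. Reads where the genes overlap may thus have gone to either gene or to neither.

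The ratio of ALAS2 to ALAS1 does not depend on the scaling between libraries. ALAS2 FPKM were 114, 168 and 48.8 times those of ALAS1 in the control dogs, against 147, 72.2 and 127 times in the CPP-Se dogs. On the log2 scale the ratio was 0.18 higher in the CPP-Se group, a difference within the spread between dogs (exact permutation test, two-sided p = 0.8, n = 3 against 3, smallest possible p = 0.1). It was -0.32 without control replicate 3 and -0.03 without CPP-Se replicate 1, so the direction rested on single dogs.

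Measured against hemoglobin, ALAS2 also overlapped between the groups. For each 100 reads on the hemoglobin genes there were 0.572, 0.702 and 0.402 reads on ALAS2 in the control dogs, against 0.521, 0.695 and 0.601 in the CPP-Se dogs. CPP-Se replicate 2, the dog with the lowest ALAS2 FPKM, was the highest of its group on this scale. The log2 difference was 0.14 (exact permutation test, two-sided p = 0.7, n = 3 against 3), and without control replicate 3 it was -0.07. As a share of all reads on genes, ALAS2 took 0.278%, 0.372% and 0.198% in the control dogs, against 0.286%, 0.254% and 0.336% in the CPP-Se dogs.

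ALAD (ENSCAFG00000003246, chromosome 11, 67741390 to 67752321, minus strand), which joins 5-aminolevulinate molecules into porphobilinogen, had 19.1, 24.7 and 12.1 FPKM in the control dogs, against 40.8, 12.3 and 26.5 FPKM in the CPP-Se dogs. CPP-Se replicates 1 and 3 were above all control dogs, while CPP-Se replicate 2 was as low as the lowest control dog. The mean was 18.6 ± 6.35 FPKM in the control group, against 26.5 ± 14.3 FPKM in the CPP-Se group, and the difference on the log2 scale was 0.39 (standard error 0.43, adjusted p = 0.702 from limma). Without CPP-Se replicate 2 the log2 fold change was 0.84, and without CPP-Se replicate 1 it was 0.01.

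UROS (ENSCAFG00000012866, chromosome 28, 34948003 to 34983532, minus strand), which closes the ring, had 12.8, 16.1 and 16.4 FPKM in the control dogs, against 11.1, 8.81 and 22.6 FPKM in the CPP-Se dogs. The control dogs lay close together, and the CPP-Se dogs lay on both sides of them. The SD was 1.99 FPKM in the control group, against 7.41 FPKM in the CPP-Se group. The fitted log2 fold change of UROS was -0.19 (standard error 0.32, adjusted p = 0.821 from limma), and without CPP-Se replicate 3 it was -0.56 (adjusted p = 0.257). Without CPP-Se replicate 2 it turned to 0.076.

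UROD (ENSCAFG00000004646, chromosome 15, 15312674 to 15320010, minus strand), which removes carboxyl groups from the ring, had 28.8, 38.3 and 19.5 FPKM in the control dogs, against 35.5, 22.9 and 50.6 FPKM in the CPP-Se dogs. CPP-Se replicate 3 was highest and control replicate 3 lowest, with the remaining 4 dogs mixed between them. For UROD the log2 fold change was 0.30 (standard error 0.34, adjusted p = 0.704 from limma), and it was 0.03 without CPP-Se replicate 3 and 0.06 without control replicate 3. One end of UROD overlaps HECTD3 on the other strand, which held reads equal to 12.6% of those on UROD.

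CPOX (ENSCAFG00000009182, chromosome 33, 5447414 to 5459461, minus strand), the mitochondrial enzyme that makes protoporphyrinogen, was the lowest of the 9 genes. It had 4.73, 4.11 and 3.60 FPKM in the control dogs, against 3.68, 4.79 and 9.56 FPKM in the CPP-Se dogs. CPP-Se replicate 3 stood apart from the others, which lay between 3.60 and 4.79 FPKM, and without it the log2 fold change went from 0.36 (standard error 0.31, adjusted p = 0.606 from limma) to 0.02. CPOX had 35 to 95 reads per library, so counting error was larger for it than for the other genes.

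PPOX (ENSCAFG00000012811, chromosome 38, 21306974 to 21311012, minus strand), which oxidizes the ring before iron is added, had 33.8, 28.2 and 16.7 FPKM in the control dogs, against 57.5, 16.6 and 25.8 FPKM in the CPP-Se dogs. CPP-Se replicate 1 was highest, as it was for ALAD. For PPOX the log2 fold change was 0.21 (standard error 0.45, adjusted p = 0.863 from limma) and turned to -0.27 without that dog. PPOX lies within the interval of B4GALT3 on the other strand, which held reads equal to 30.5% of those on PPOX.

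FECH (ENSCAFG00000000126, chromosome 1, 18345811 to 18383092, plus strand), the enzyme that inserts iron, had the largest fold change of the 9 genes. Its FPKM were 34.6, 84.4 and 41.4 in the control dogs, against 78.5, 47.2 and 125 in the CPP-Se dogs. Control replicate 2 was above the first pair of CPP-Se dogs, so the groups overlapped. The mean was 53.5 ± 27.0 FPKM in the control group, against 83.6 ± 39.2 FPKM in the CPP-Se group. The log2 fold change of 0.64 had a standard error of 0.43 and a 95% interval from -0.36 to 1.63 (adjusted p = 0.519 from limma). Without control replicate 2 it was 1.01 and without CPP-Se replicate 2 it was 0.99, whereas it was 0.38 without control replicate 1 and 0.29 without CPP-Se replicate 3. When all libraries were scaled to the same summed red cell markers, it was 0.09, beside a median of -0.46 over all genes tested on that scale. Relative to this median FECH was thus 0.55 higher, against 0.64 in the test reported.

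BLVRB (ENSCAFG00000005338, chromosome 1, 113244503 to 113258073, plus strand) was nearly as abundant as ALAS2 and had the widest range between dogs. It had 1563, 1967 and 296 FPKM in the control dogs, against 1550, 756 and 1531 FPKM in the CPP-Se dogs. Control replicate 3 was far below the other dogs, and the highest dog had 6.65 times its level. The means were 1275 ± 872 FPKM in the control group, against 1279 ± 453 FPKM in the CPP-Se group, so they differed by far less than their SD. The log2 fold change of 0.33 had a standard error of 0.70 (adjusted p = 0.861 from limma), and without control replicate 3 it was -0.53. AHSP, the chaperone of alpha hemoglobin in red cells, was also lowest in that dog, with 194 FPKM against 571 to 1329 FPKM in the others, while ALAS1 was highest there. Other red cell measures were not lowest in control replicate 3. SLC4A1 was lower in control replicate 1 (7.26 against 7.98 FPKM). The hemoglobin share of reads was 49.2% in control replicate 3, against 48.7% in control replicate 1 and 36.6% in CPP-Se replicate 2.

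**Figure D2:**
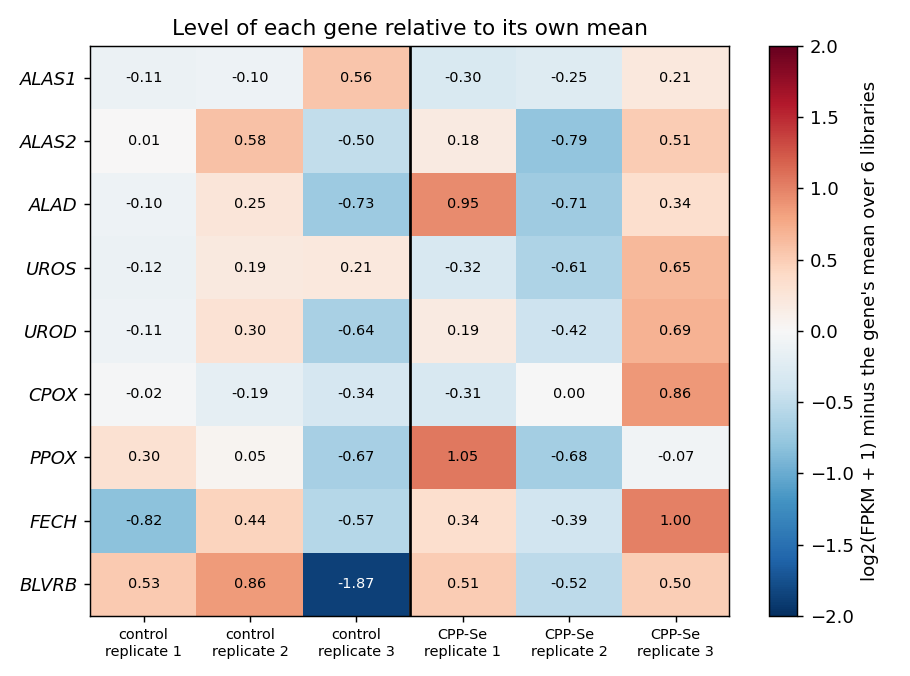
log2(FPKM + 1) of each gene in each library (columns) minus the gene's own mean over the 6 libraries, for the 9 genes (rows). BLVRB in control replicate 3 is the lowest cell at -1.87, and CPP-Se replicate 2 is below the mean for every gene, except that CPOX lies at its mean. The summed FPKM of all genes was also lowest in CPP-Se replicate 2, at 303449 against 458774 to 540009 in the other libraries. As a share of reads on genes, the 9 genes were lowest in control replicate 3 (0.255%) and stood at 0.405% in CPP-Se replicate 2.

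By mean FPKM over the 6 dogs, the order was ALAS2 (1621), BLVRB (1277), FECH (68.5), UROD (32.6), PPOX (29.8), ALAD (22.6), ALAS1 (15.1), UROS (14.6) and CPOX (5.08). BLVRB was above FECH, FECH above UROD and UROS above CPOX in 6 of 6 libraries. ALAS2 exceeded BLVRB in 5 of 6 libraries, and UROD exceeded PPOX in 4 of 6. The ranges over the 6 dogs overlapped between all neighbours in this order, with BLVRB and FECH as the exception. Together ALAS2 and BLVRB made up 91.3% to 95.5% of the summed FPKM of the 9 genes. The 9 genes took 0.255% to 0.570% of the reads on genes, with control replicate 3 lowest and control replicate 2 highest.

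The standard error of the log2 fold change was above the median of all genes tested (0.25) in 8 of the 9 genes, with a median of 0.43. ALAS1 was the exception. All 9 had a mean of at least 5 FPKM, as did 4995 of the 9847 genes tested, and log2(FPKM + 1) understates spread at low levels. Genes of similar level were not compared. The standard error was 0.37 at the median of 19 red cell markers tested and 0.51 at that of 6 hemoglobin genes tested. The 95% interval reached a 2-fold change in at least 1 direction for 7 of the 9 genes, with ALAS1 and UROS as the exceptions. The coefficient of variation over the 6 dogs ranged from 26.3% (ALAS1) to 50.8% (PPOX), with 48.7% for BLVRB and 35.1% for ALAS2. Highest values fell in CPP-Se replicate 3 for 4 of the 9 genes, in control replicate 2 for ALAS2 and BLVRB, in CPP-Se replicate 1 for ALAD and PPOX, and in control replicate 3 for ALAS1.

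**Figure D3:**
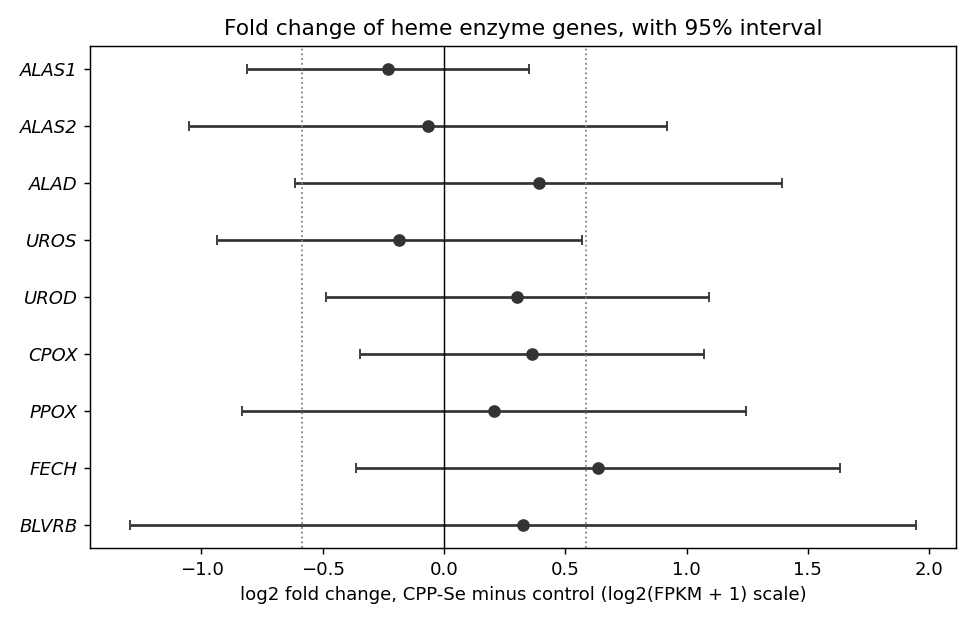
log2 fold change between the CPP-Se and control groups (x axis, on the log2(FPKM + 1) scale) with its 95% interval from limma, for the 9 genes. The dotted lines mark a 1.5-fold change in each direction, and all intervals include 0.

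Most pairs of the genes were high and low in the same dogs, and pairs with ALAS1 mostly were not. These correlations are over 6 libraries that share their scaling, and they are given as a description. Of the 36 pairs among the 9 genes, 28 had a Pearson r of log2(FPKM + 1) above 0, with a median of 0.54. The highest were ALAD with PPOX (0.91) and ALAS2 with UROD (0.90), and the lowest was ALAS1 with BLVRB (-0.66). ALAS1 had an r above 0 with UROS and CPOX alone. With the libraries scaled to a common sum without the hemoglobin genes, 25 of the 36 pairs stayed above 0, ALAS2 with UROD had an r of 0.83 and ALAS1 with BLVRB one of -0.92.

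The genes most like ALAS2 across the 6 libraries, among 8130 tested genes with a symbol, were RHBDF1 (r = 0.99), DNAJA4 (r = 0.99), CARM1 (r = 0.98), IFRD2 (r = 0.98) and CD82 (r = 0.98). Those most like ALAS1 were PINK1 (r = 0.98), SLMAP (r = 0.98), AKR1B1 (r = 0.97), MTDH (r = 0.97) and THOC7 (r = 0.97). Scaling without the hemoglobin genes left 4 of the 5 genes for ALAS2 and 3 of the 5 for ALAS1 among the most similar. In all, 71 genes had an r of at least 0.9 with ALAS2 and 56 with ALAS1.

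Relative to ALAS2, FECH and UROD were higher in every CPP-Se dog than in every control dog. These ratios were chosen after the values were seen, and they were not tested. For each 100 FPKM of ALAS2 there were 2.24, 3.68 and 3.82 FPKM of FECH in the control dogs, against 4.52, 5.35 and 5.73 FPKM in the CPP-Se dogs. For UROD the values were 1.86, 1.67 and 1.80 FPKM in the control dogs, against 2.04, 2.60 and 2.32 FPKM in the CPP-Se dogs. The groups did not overlap in these 2 of the 8 other genes of the list, and in 5.01% of all genes tested when each was taken relative to ALAS2. The ratio of BLVRB to ALAS2 was 1.01, 0.858 and 0.273 in the control dogs, against 0.893, 0.857 and 0.701 in the CPP-Se dogs.

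**Figure D4:**
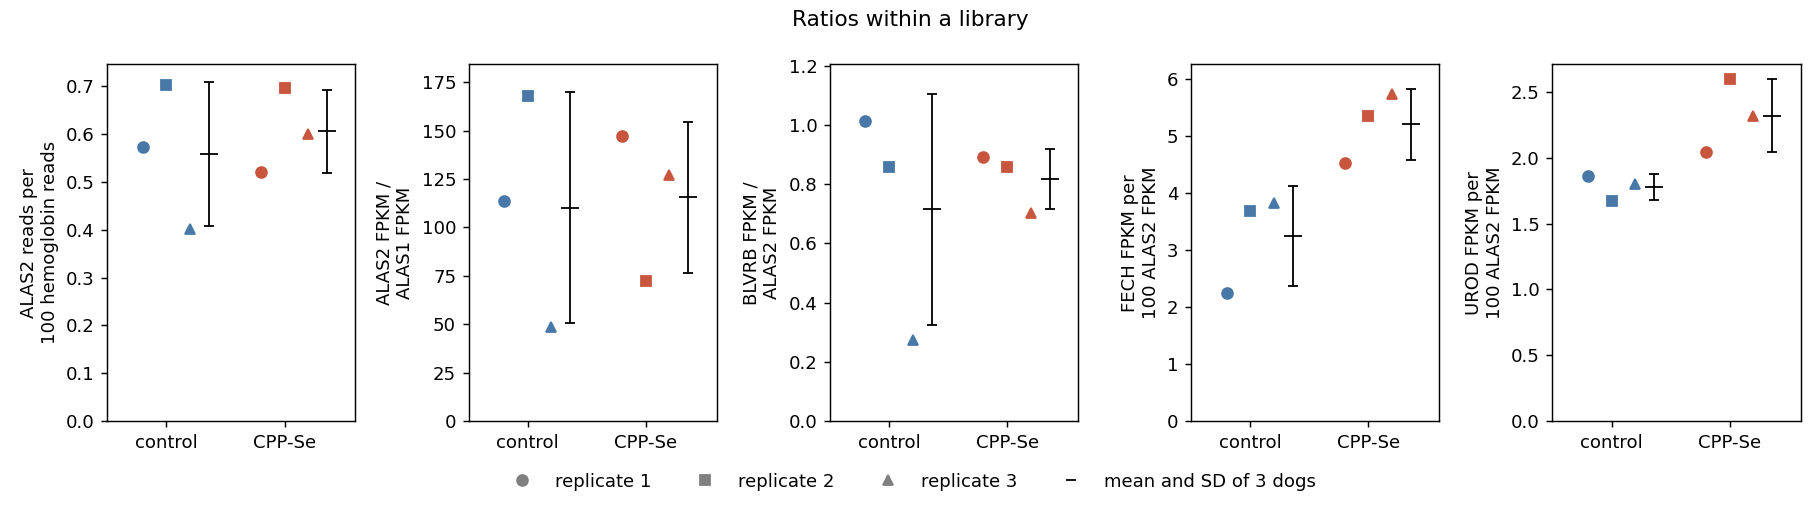
Ratios within each library, which a scaling between libraries cannot change: ALAS2 reads per 100 hemoglobin reads, ALAS2 over ALAS1, BLVRB over ALAS2, and FECH and UROD per 100 FPKM of ALAS2. Points are dogs and black bars the mean and SD of 3 dogs; FECH and UROD relative to ALAS2 are the panels without overlap between the groups.

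No difference was detected in the enzymes that act on heme after its synthesis. HMOX1, the inducible heme oxygenase, had 22.4, 18.4 and 29.3 FPKM in the control dogs, against 18.8, 19.3 and 13.6 FPKM in the CPP-Se dogs, which is -0.41 on the log2 scale (adjusted p = 0.431 from limma). HMOX2, the constitutive form, had a log2 fold change of 0.22, and BLVRA, the other biliverdin reductase, had 0.815 to 1.498 FPKM. BLVRB thus exceeded BLVRA in level in every library, and 0 of these 3 genes were DEGs or had an unadjusted p under 0.05, beside 0.0305% and 16.0% of all genes tested.

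Of 16 genes of iron, glycine, porphyrin and heme transport, 13 were tested and 0 were DEGs, with 5 higher and 8 lower and a median log2 fold change of -0.05. SLC25A37, the mitochondrial iron importer of red cells, had the lowest value at -0.56 (standard error 0.25, adjusted p = 0.336 from limma) and ABCB6, a porphyrin transporter, the highest at 0.45 (standard error 0.24, adjusted p = 0.408). Of 11 genes of ALAS turnover, iron sensing and heme response, 10 were tested and 0 were DEGs, with a median of 0.11. CLPX, which unfolds proteins for mitochondrial proteolysis and acts on ALAS, had the lowest log2 fold change (-0.52, adjusted p = 0.266) and CLPP, its protease partner, the highest (0.64, adjusted p = 0.332). Before adjustment, 0 of the 13 and 2 of the 10 had a p under 0.05, LONP1 with a log2 fold change of 0.52 and CLPX, beside 16.0% of all genes tested. limma-voom, with or without sample quality weights, called 0 of both lists.

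Among the erythroid transcription factors, 8 of 9 were tested and 0 were DEGs, with a median log2 fold change of -0.31. LMO2 had the lowest value at -1.14 (standard error 0.19, adjusted p = 0.138 from limma), from 55.5 ± 0.450 FPKM in the control group to 25.0 ± 4.98 FPKM under the supplement, and its groups did not overlap, as in 23.0% of all genes tested. LDB1, its binding partner, had the highest at 0.09. LMO2 is not restricted to red cells. It alone of the 8 had an unadjusted p under 0.05, beside 16.0% of all genes tested. LMO2 was called by limma-voom with sample quality weights and not without them, beside 1.58% and 0.0102% of all genes tested.

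Of the 19 red cell markers tested, 0 were DEGs, 13 were higher and 6 lower, and the median log2 fold change was 0.31, beside the 0.30 of the 9 heme enzyme genes. Before adjustment, p was under 0.05 for 4 higher and 1 lower gene, beside 16.0% of all genes tested. limma-voom called 0 of the 19 without and 1, TMCC2, with sample quality weights, beside 0.0102% and 1.58% of all genes tested. TMCC2 had the highest value at 1.87 (standard error 0.39, adjusted p = 0.138 from limma) and GYPC, a membrane glycoprotein, the lowest at -0.63 (adjusted p = 0.209). SLC4A1, the anion exchanger of the red cell membrane, had 7.26, 15.5 and 7.98 FPKM in the control dogs, against 15.7, 15.0 and 37.2 FPKM in the CPP-Se dogs. The 6 hemoglobin genes tested had a median of -0.18, with 2 higher and 4 lower, and 0 were DEGs (1 with an unadjusted p under 0.05).

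The markers of other blood cells, which bear on the label of whole blood, were detected for each type, and of the 47 genes tested 0 were DEGs. Of these, 25 had an unadjusted p under 0.05, beside 16.0% of all genes tested. limma-voom called 0 of the 47 without sample quality weights and 6 with them, beside 0.0102% and 1.58% of all genes tested. The paper, with DESeq2 at the same thresholds, reported DEGs that include CD3D, PRF1 and CXCR2. The median log2 fold change was -0.93 for 8 monocyte genes (from -1.46 for VCAN to -0.50 for CD68) and -0.80 for 7 neutrophil genes (from -1.21 for CXCR2 to 1.35 for MMP9). Single dogs set the value of MMP9, which was 0.46 without CPP-Se replicate 1 and 2.91, with a call as DEG, without CPP-Se replicate 2. The median was 0.64 for 12 T cell genes, with 10 higher and 2 lower (from -0.61 for CD4 to 1.11 for CD3D). For 8 B cell genes it was 0.64 (from 0.14 for PAX5 to 0.89 for CD22). It was 0.73 for 6 NK and cytotoxic cell genes (from 0.48 for GZMB to 1.31 for PRF1). For 6 platelet genes it was -0.17 (from -0.67 for ITGB3 to 0.43 for TUBB1). CD4 had a mean of 1041 FPKM in the control group, against 7.22 FPKM for CD3D, and dominated the summed T cell genes. That sum was 1033 to 1354 FPKM in the control group, against 853 to 994 FPKM in the CPP-Se group, opposite to the median. Which cells the CD4 reads came from was not tested. The part of these cells in the levels of ALAS1 and the other genes that leukocytes express was not tested.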

How the data were processed

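Whole blood RNA of 6 dogs was sequenced by the authors as 1 library per dog (3 control, 3 CPP-Se). Poly-A RNA libraries (NEBNext Ultra) were read as paired ends. The authors filtered the reads, aligned them (HISAT2 2.0.5) against the dog assembly in Ensembl release 100 and assembled them with StringTie 1.3.3b, and the submitters' processing notes also name CASAVA 2.19, fastp 0.19.7 and featureCounts 1.5.0-p3. The deposited values are FPKM computed by the authors from gene length and mapped reads. Gene lengths and positions are those of the deposited table. Which library size the FPKM were scaled to is not stated beside them, and the read totals in the study's supplement were not used here.

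The product of FPKM and gene length came out as whole steps in each library for 100% of values above 0 (tolerance 0.01), which gave the reads. The 95% intervals of the log2 fold changes are those of limma and reflect the spread between dogs. Groups and replicate numbers came from the sample titles. Genes whose mean reached 1 FPKM were tested in R 4.3.3 with limma 3.58.1 (lmFit, eBayes with trend) on log2(FPKM + 1), which understates changes of low genes, with Benjamini-Hochberg adjustment over all genes tested. Ratios were compared by exact permutation tests (scipy 1.17.1, Python 3.11.15). Hemoglobin genes were taken from the descriptions in the file, since HBM alone carries a symbol. Named are the listed genes, the highest and lowest log2 fold change of each other list, the 5 genes most correlated with ALAS2 and with ALAS1, and genes overlapping them; AHSP, SLC4A1, BLVRA and LONP1 were chosen after their values were seen, and some genes that this rule covers are not reported here. The genes and lists were chosen with earlier results of these data known. The fit was tested on simulated data with known changes. Alternatives were a pseudocount of 0.1, other filters, scalings and variance models, a replicate block, other thresholds, each library left out, and limma-voom on the recovered reads. Blood counts, serum measurements and metabolites were not analysed here.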

Additional observations from a re-analysis of the deposited data

How the results depend on the processing

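None of the 9 genes passed the thresholds in any of the 19 alternatives fitted (lowest adjusted p = 0.249, FECH, limma-voom with sample quality weights), nor at an adjusted p under 0.1 without a limit on the fold. An unadjusted p under 0.05 was reached by FECH with a common sum of FPKM and without control replicate 2, by ALAD without CPP-Se replicate 2 and by UROS without CPP-Se replicate 3. Of 171 values of the 9 genes under alternatives, 156 kept their direction. The count of DEGs over all genes, 3 in the test reported, was 0 with a pseudocount of 0.1 and with no filter, 1 with a mean of at least 5 FPKM, 12 with a common sum of FPKM, 63 with equal summed red cell markers, 1 with limma-voom and 156 with sample quality weights, and 0 to 14 with a library left out (14 without CPP-Se replicate 2). With the replicate number as a block it was 1, and 0 of the 9 genes passed. Deviations of same-numbered dogs had correlations of 0.016, -0.090 and -0.043, so the numbers were not taken as pairs.

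With equal summed red cell markers, which moved the median of all genes to -0.46, the log2 fold change became -0.13 for ALAD, -0.23 for UROD, -0.12 for CPOX, -0.32 for PPOX, -0.23 for BLVRB, -0.30 for HMOX2, -0.44 for LDB1, -0.16 for PAX5 and -0.12 for TUBB1, and the median of the 9 genes became -0.23. That median was -0.064 with array weights and -0.0080 to 0.59 with a library left out. A common sum of FPKM, which moved the median of all genes to 0.13, gave 0.090 for ALAS2. A common sum without hemoglobin genes, which moved that median to 0.12, gave 0.081 for ALAS2. Array weights gave -0.11 for PPOX and -0.064 for BLVRB. With a library left out, the log2 fold change ranged from -0.34 to 0.31 for ALAS2, -0.56 to 0.076 for UROS, -0.27 to 0.60 for PPOX, -0.53 to 0.84 for BLVRB, -0.037 to 0.22 for LDB1 and -0.28 to 0.37 for PAX5. ALAS2 relative to hemoglobin ranged from -0.075 to 0.33 and relative to ALAS1 from -0.32 to 0.57. Of the other genes named, CD3D, CXCR2, LMO2, PRF1, TMCC2 and VCAN became DEGs with sample quality weights, TMCC2 with a common sum of FPKM, and MMP9 without CPP-Se replicate 2 (log2 fold change 2.91). MMP9 was at 0.68 without CPP-Se replicate 3, 0.54 with array weights and 0.80 with equal summed red cell markers, against 1.35 in the test reported. The cause of these shifts was not tested. CPOX had the fewest reads of the 9 genes, and 3 dogs per group limit all 9.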
